A study of Bos taurus and Bos grunniens and Bubalus bubalis with 15 samples.

Results

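CRY1, PER2 and RORA are genes of the circadian clock, 3 of 9155 genes named on the array. Their transcripts were read in back muscle by 6 of its 24128 probe sets, 1 for CRY1, 2 for PER2 and 3 for RORA, taken as all those to which the platform annotation gives one of these symbols. The genes were picked from results on these same intensities, and which comparison led to the choice is not recorded. Their values are therefore given as a description, with no p-value, and their counts of calls support nothing. The muscle was longissimus dorsi, which runs along the spine, from 15 animals slaughtered at 36 months. There were 5 groups of 3: Guangxi buffalo, Qinghai yak, and females, castrated males and intact males of Qinchuan cattle. For yak and buffalo the sex is not stated in the labels, and the hour of slaughter is not stated for any animal. The cattle were born close together in time and reared alike. The submitters asked which genes differ between the cattle groups and between cattle and the other species.

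The clock is a transcriptional loop that runs in nearly every cell, muscle fibres included. CLOCK and BMAL1 (ARNTL) switch on the PER and CRY genes, whose proteins return to the nucleus and block their own activators. In a second loop RORA activates ARNTL through elements that the repressor NR1D1 also occupies. Transcripts of most of these genes rise and fall over the day, so a single sample per animal reads 1 phase of the cycle. Because the hour of slaughter is not given, group and time of day cannot be told apart in any difference below.

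Values are hybridisation intensities on a linear scale, with 1 array per animal. The probes hold cattle sequence, and the part of mismatches in yak and buffalo was not tested in any species comparison. Precision is limited by the number of arrays, since arrays have no read depth. Differences are log2 fold changes of intensity + 16 with their SE from limma, a linear model fitted here to all 14409 probe sets bright enough to test. For the other clock genes, adjusted p are Benjamini-Hochberg values over those probe sets and the threshold was 0.05. Higher and lower refer to the group named first in a comparison. Skeletal muscle markers, 8 of 10 with a probe set and none at 0, summed to between 85890 and 107800 on every array. The median log2 value of an array ranged from 6.71 to 6.81. Intact male 1 stood apart from the other cattle at -68.8 on the first principal component, against -26.9 and -7.29 for intact males 2 and 3 and 3.76 to 25.8 for the other cattle. Macrophage markers (4 of 5 measured, none at 0) summed to 235.6 to 501.7 in females and 419.7 to 588.3 in castrated males, against 11480, 2154 and 1350 in intact males 1, 2 and 3. The 5 fibroblast markers, none at 0, summed to 7733 to 9083 in females and 9535 to 10610 in castrated males, against 27250 to 33850 in intact males. In buffalo and yak they summed to 3486 to 5585 and 3920 to 5055, below every cattle array. PDGFRA did not follow these sums, at 152.9, 266.4 and 309.9 in intact males 1, 2 and 3 against 239.2 to 299.1 in the other cattle. Buffalo and yak overlapped cattle in PDGFRA, and buffalo also in COL1A1. Nerve markers (2 of 5 measured, none at 0) summed to 2981 to 3446 in buffalo, 1828 to 2636 in yak and 1108 to 2629 in cattle. S100B made up most of that sum. The other marker, MBP, was not higher in buffalo than in cattle, at 57.69 to 101.9 against 59.24 to 349.7. Every buffalo array lay above yak in MBP, which had 23.59 to 50.85. The part of fibroblasts and nerve cells in the species differences was not tested. These are bulk samples, in which fewer cells of a type and less RNA per cell cannot be told apart.

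PER2, the repressor that CRY proteins bind, split the 5 groups into a low and a high set. Its 2 probe sets are called A1_at and S1_at after the end of their identifiers. On A1_at, buffalo 1, 2 and 3 had intensities of 153, 157 and 145. Yak had 397, 452 and 370.4, and females 387, 239 and 372. Castrated males had 164, 125 and 94.6, and intact males 282, 414 and 408. The 3 buffalo and 3 castrated male arrays thus all lay below every yak, female and intact male array. Group means were 152 ± 6.42 in buffalo, 407 ± 41.8 in yak, 333 ± 81.7 in females, 128 ± 34.9 in castrated males and 368 ± 74.3 in intact males (SD, n = 3 each). From high to low the order was yak, intact males, females, buffalo and castrated males. Neighbours in that order overlapped except females and buffalo.

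**Figure D1:**
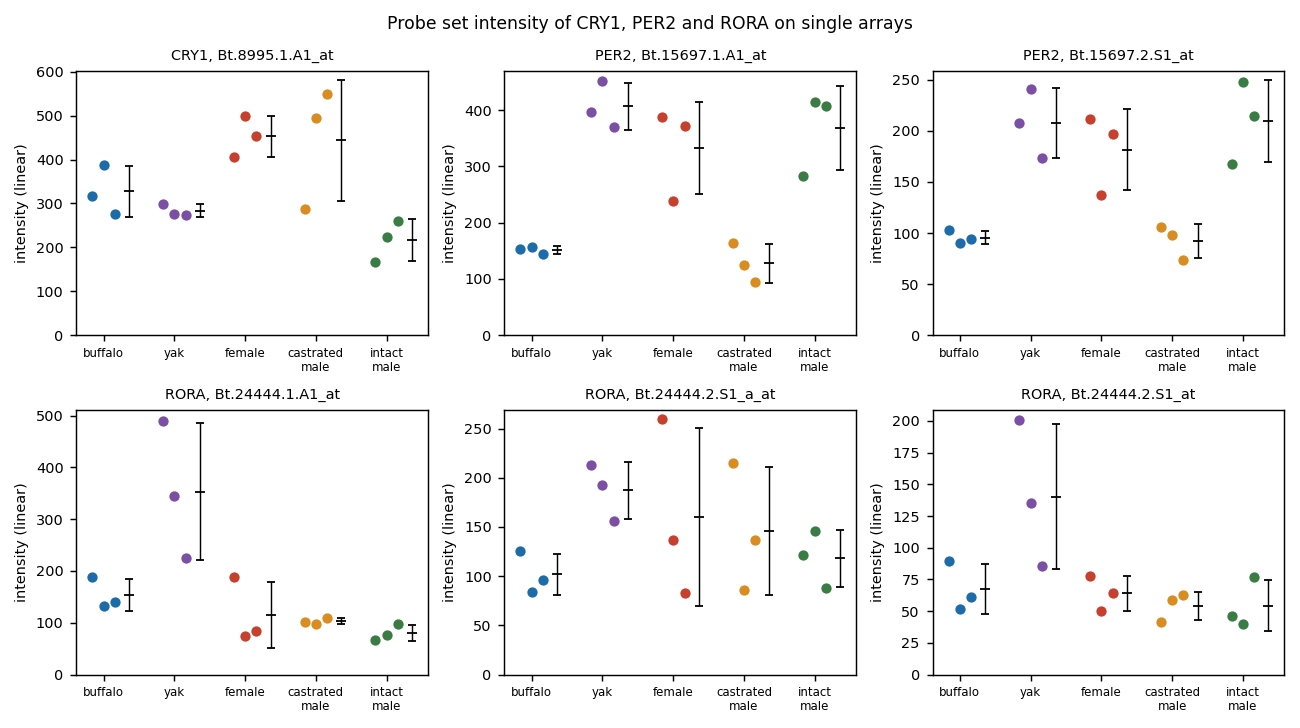
Intensity (linear scale) of the 6 probe sets of CRY1, PER2 and RORA on each of 15 arrays, 3 coloured points per group and a black mean with SD beside them. Both PER2 probe sets are low in buffalo and castrated males, CRY1 is lowest in intact males, and the A1_at probe set of RORA reaches 489 in yak 1.

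The second PER2 probe set, S1_at, gave the same split. Buffalo had 103, 89.8 and 93.8, and yak 208, 241 and 174. Females had 212, 137 and 196, castrated males 105, 98.3 and 73.6, and intact males 167, 247 and 215. Over the 15 arrays the log2 values of the 2 probe sets had a Pearson correlation of 0.98, and of 0.92 after the group means were removed. They share the RNA of each array and the gene, so the second is no further sample.

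Castrated minus intact males gave a PER2 log2 fold change of -1.42 (SE 0.24) on A1_at and -1.05 (SE 0.19) on S1_at. Among the tested probe sets, 1.24% and 2.85% differed by as much in either direction. Such shares only describe the members, since these genes were picked from results on the same intensities. Females minus castrated males gave 1.28 (SE 0.24) and 0.86 (SE 0.19), sizes reached by 0.34% and 1.51% of the tested probe sets. In both comparisons the groups did not overlap on either probe set. Females minus intact males, by contrast, gave -0.15 (SE 0.24) and -0.20 (SE 0.19), with overlapping groups, and differences of that size or more were found in 62.5% and 52.8% of the probe sets. Castrated males thus lay apart in PER2 from both other cattle groups. With 1 array left out at a time, castrated minus intact males stayed between -1.60 and -1.25 on A1_at and between -1.20 and -0.92 on S1_at.

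Between species, buffalo minus yak gave -1.33 (SE 0.21) and -0.996 (SE 0.18) for the 2 PER2 probe sets, and the groups did not overlap. Such sizes were common in this comparison, with 6.77% and 12.7% of probe sets differing as much. Against cattle, taken as the mean of the 3 cattle groups, buffalo gave -0.65 (SE 0.17) and -0.59 (SE 0.15), and yak 0.68 (SE 0.17) and 0.41 (SE 0.15). All 4 of these overlapped with the cattle arrays, since cattle themselves on A1_at ranged from 94.6 to 414. With castrated males and females alone as cattle, A1_at gave -0.39 for buffalo and 0.94 for yak.

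CRY1, the repressor that closes the loop by binding CLOCK and BMAL1, was lowest in intact males. Its only probe set read 318, 389 and 275 in buffalo and 299.9, 276 and 274 in yak. Females had 405, 499 and 454, castrated males 288, 496 and 548, and intact males 166, 225 and 261. Every other array lay above the 3 intact male arrays. Group means were 327 ± 57.2 in buffalo, 283 ± 14.5 in yak, 453 ± 47.0 in females, 444 ± 138 in castrated males and 217 ± 48.1 in intact males (SD, n = 3 each). From high to low the order was females, castrated males, buffalo, yak and intact males. Each neighbouring pair in that order overlapped except yak and intact males.

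Castrated minus intact males gave a CRY1 log2 fold change of 0.95 (SE 0.25), and females minus intact males 1.02 (SE 0.25). Of the tested probe sets, 3.63% and 4.86% differed by as much. Females minus castrated males gave 0.07 (SE 0.25). Castrated male 1, at 288, lay close to intact male 3, at 261, and away from the other castrated males. Without it, castrated minus intact males gave 1.23. Within intact males, CRY1 was lowest on the array with the most macrophage signal (166 beside a marker sum of 11480) and highest on the one with the least (261 beside 1350). Castrated males ran the other way, from 288 beside 419.7 to 548 beside 588.3. In yak and buffalo too CRY1 was lowest on the array with the least macrophage signal, and in females on the one with the most. The part of macrophages in the CRY1 difference was not tested. Without intact male 1, castrated minus intact males gave 0.78 and females minus intact males 0.85, and intact males 2 and 3 also had more macrophage signal than any castrated male or female. Yak minus cattle gave -0.28 (SE 0.18), buffalo minus cattle -0.09 (SE 0.18) and buffalo minus yak 0.19 (SE 0.22), and all 3 overlapped. Against castrated males and females alone, the values were -0.42 for buffalo and -0.61 for yak.

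**Figure D2:**
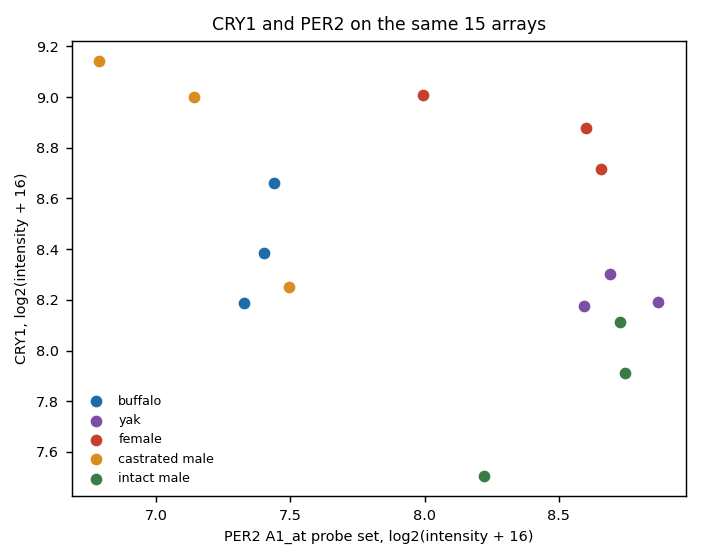
CRY1 (vertical) against PER2 (horizontal), both as log2(intensity + 16), on the same 15 arrays coloured by group. Females are high in both, castrated males 2 and 3 lie at low PER2 and high CRY1, and intact males at high PER2 and low CRY1.

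CRY1 and PER2 thus did not move together across the cattle groups. Females had both at high levels, castrated males 2 and 3 had high CRY1 and low PER2, and intact males had low CRY1 and high PER2. As a description over the 15 arrays, the Pearson correlation of CRY1 with PER2 (A1_at) was -0.44, and -0.27 within groups.

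RORA, the nuclear receptor that activates ARNTL, had its highest group mean in yak on each of its 3 probe sets, and on 2 of them every yak array lay above every cattle array. The probe sets are called A1_at, S1_at and S1_a_at here. On A1_at, buffalo had 189, 132 and 139, and yak 489, 344 and 225. Females had 188, 74.0 and 83.4, castrated males 102, 98.3 and 109.7, and intact males 66.3, 76.7 and 96.8. Every yak array lay above every other array. Group means were 153 ± 31.0 in buffalo, 353 ± 132 in yak, 115 ± 63.5 in females, 103 ± 5.86 in castrated males and 79.9 ± 15.5 in intact males (SD, n = 3 each). The order from high to low was yak, buffalo, females, castrated males and intact males. Buffalo and females overlapped, as did females and castrated males, while castrated and intact males did not overlap but came close, at 98.3 for the lowest castrated male against 96.8 for the highest intact male.

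Yak minus cattle gave a RORA log2 fold change of 1.66 (SE 0.24) on this probe set, a size reached by 1.17% of the tested probe sets. Buffalo minus cattle gave 0.59 (SE 0.24), with overlap, and buffalo minus yak -1.07 (SE 0.29), without. Castrated minus intact males gave 0.33 (SE 0.27), females minus intact males 0.36 (SE 0.27) and females minus castrated males 0.04 (SE 0.27). The 2 differences that involve females rested on female 1, and without it they were -0.01 against intact males and -0.33 against castrated males. Leaving out yak 1 lowered yak minus cattle to 1.40, and leaving out yak 3 raised it to 1.94.

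The other 2 RORA probe sets were designed from 1 shared sequence record, and they did not read alike. S1_at had 200.4, 135 and 85.7 in yak, against 39.5 to 78.1 on the 9 cattle arrays, for a log2 fold change of 1.05 (SE 0.21) with no overlap. Buffalo, at 89.5, 51.3 and 61.5, overlapped both. This probe set was dim, with a mean of 6.42 on the log2 scale that fell just under the cut of the filter, and its difference comes from the fit without the filter. The file holds no detection calls, so how far its values stand above background is unknown. S1_a_at, whose suffix marks probes shared by several transcripts of a gene, had 125, 83.9 and 95.8 in buffalo and 213, 193 and 156 in yak. Its values in cattle were 259, 136.5 and 83.3 in females, 215, 86.1 and 136 in castrated males, and 121, 146 and 88.0 in intact males. Yak minus cattle was 0.45 (SE 0.28) there, with overlap, and buffalo minus cattle -0.35 (SE 0.28), opposite in sign to the 0.59 of A1_at. Over the 15 arrays A1_at had a Pearson correlation of 0.91 with S1_at and of 0.53 with S1_a_at. A statement on RORA in yak or buffalo therefore depends on the probe set.

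The ratio of 3' to 5' signal of the actin control, a sign of RNA integrity, was 1.42, 1.69 and 1.73 in buffalo 1, 2 and 3, where buffalo 1 had the lowest ratio and the highest RORA (A1_at). In yak it was 1.93, 1.51 and 1.49, and yak 1 was highest and yak 3 lowest in both. Cattle ratios ran from 1.17 to 1.48. The same ratio of the GAPDH control was 1.203, 1.244 and 1.257 in yak 1, 2 and 3, lowest where RORA (A1_at) was highest. It was 1.215, 1.422 and 1.504 in buffalo 1, 2 and 3 and 1.129 to 1.339 in cattle. RNA quality and mismatches to the cattle probes in yak and buffalo were not tested as parts of the RORA difference or of any other species difference given here.

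**Figure D3:**
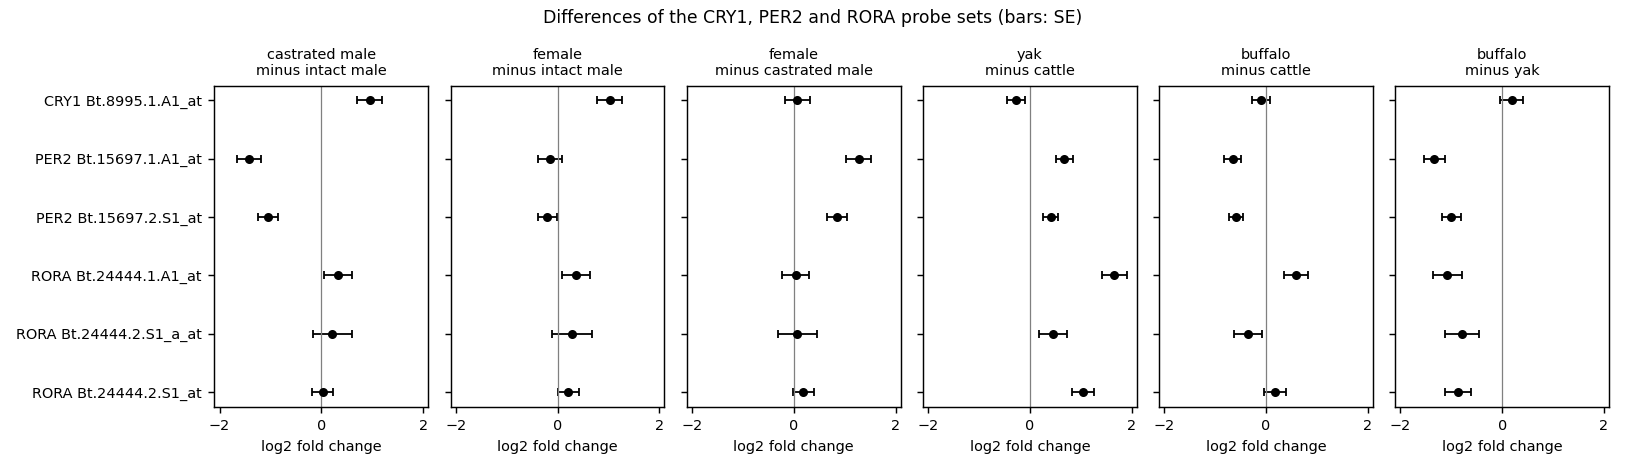
Log2 fold change (horizontal axis, points with SE bars) of the 6 probe sets of CRY1, PER2 and RORA in 6 comparisons, 1 panel each. PER2 lies at -1.42 and -1.05 in castrated minus intact males and at 1.28 and 0.86 in females minus castrated males, CRY1 at 0.95 and 1.02 against intact males, and RORA (A1_at) at 1.66 in yak minus cattle.

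Counted as calls over all tested probe sets, with 5 of the 6 passing the filter, 2 were lower in castrated than intact males, both of PER2, where 1.46% of all probe sets were called and 0.840% were called lower. Both calls were absent without any one of castrated males 1, 2 and 3 or intact male 2. In females minus intact males 1 was higher, CRY1, beside 5.50% called and 2.12% called higher, and it was not called without any one array of the 2 groups other than intact male 3. In females minus castrated males 0 of 5 passed in limma, beside 0.0208% called, that is 3 probe sets of 14409. In yak minus cattle 3 were higher (1 without yak 2), beside 29.1% called and 13.2% called higher. In buffalo minus cattle 2 were lower beside 51.4% called and 28.4% called lower. In buffalo minus yak 3 were lower (2 without yak 1) beside 42.2% called and 22.7% called lower. Groups did not overlap for 4, 1, 2, 2, 0 and 4 of the 6 probe sets in the 6 comparisons in that order. Over all tested probe sets the share was 24.8%, 33.1%, 17.5%, 19.3%, 32.0% and 55.2%. Yak minus cattle and buffalo minus cattle share the cattle arrays, and the 3 cattle comparisons share groups in pairs, so none of these counts is independent of the others.

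The 3 genes varied more between animals of a group than most transcripts. The residual SD on the log2 scale, over the 5 groups, was 0.29 for CRY1, 0.27 and 0.23 for the PER2 probe sets and 0.41, 0.47 and 0.37 for those of RORA, against a median of 0.19 over all tested probe sets. It was higher than in 64.8% to 94.6% of those probe sets. Groups accounted for 89.5% and 86.1% of the variance of the PER2 probe sets, 72.4% for CRY1, and 79.8%, 32.9% and 65.2% for RORA in the order A1_at, S1_a_at and S1_at. The median over tested probe sets was 67.8%.

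Of 18 other genes of the clock loop, 4 had a named probe set: HLF, NR1D1, NFIL3 and BHLHE40. The other 14, ARNTL, CLOCK, PER1, PER3, CRY2, NR1D2 and DBP among them, were not analysed here, since the annotation lists no probe set under their symbols. Under the symbols searched, ARNTL and CLOCK, no gene of the loop's activating pair was thus read beside its repressors.

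**Figure D4:**
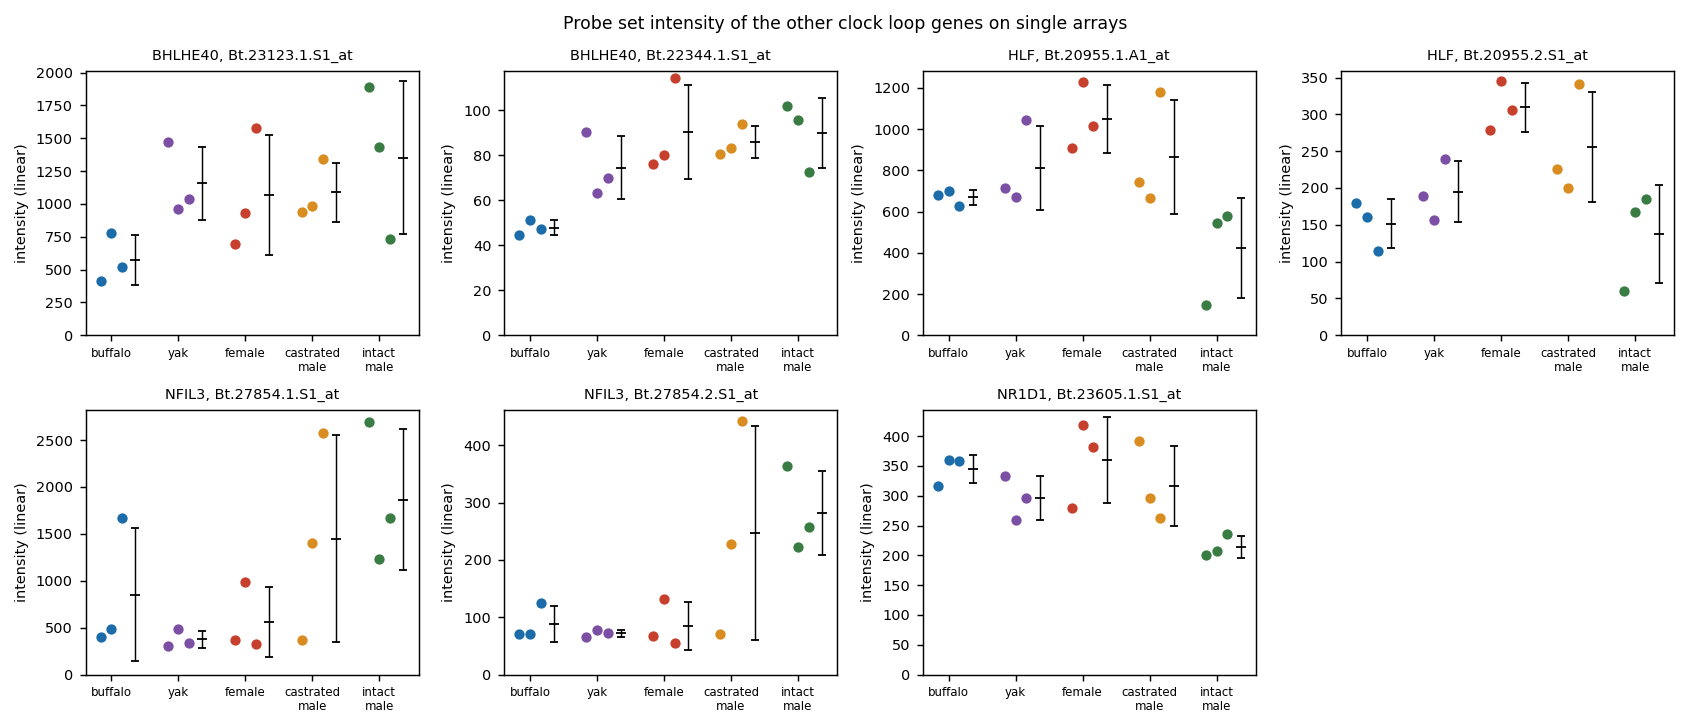
Intensity (linear scale) of the probe sets of BHLHE40, HLF, NFIL3 and NR1D1 on each of 15 arrays, with group means and SD in black. HLF and NR1D1 are lowest in intact males, BHLHE40 is lowest in buffalo, and NFIL3 spreads from 363 to 2572 within castrated males.

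HLF, an activator of the D-box genes that the clock drives, and NR1D1, the repressor that opposes RORA, were both lower in intact males than in the other cattle, as CRY1 was, without passing the threshold. HLF had 908, 1229 and 1014 in females and 743, 666 and 1179 in castrated males, against 145, 545 and 577 in intact males. The groups did not overlap on this probe set, and the log2 fold changes were 1.49 (SE 0.46, adjusted p = 0.0819) for females and 1.18 (SE 0.46, adjusted p = 0.195) for castrated males against intact males, by limma. The second HLF probe set gave 1.20 (SE 0.34, limma adjusted p = 0.0689) and 0.91 (SE 0.34, limma adjusted p = 0.186). Intact male 1, at 145, lay far below the other 2 intact males and had the highest macrophage sum, whose part was not tested. Without it the HLF values were 0.875 for females and 0.56 for castrated males. NR1D1 had 280.1, 419 and 381 in females and 391, 296 and 263 in castrated males, against 201, 207 and 236 in intact males. Its log2 fold changes were 0.69 (SE 0.19, limma adjusted p = 0.0623) and 0.52 (SE 0.19, limma adjusted p = 0.175), with no overlap. Among 13 alternatives for females minus intact males, NR1D1 passed in 3 (limma adjusted p down to 0.00183) and HLF in 2 (down to 0.0111), and for castrated minus intact males NR1D1 passed in 1 (0.0185). Neither gene passed between species, with adjusted p of 0.133 to 0.948 in limma over the 3 probe sets, though NR1D1 passed in buffalo minus cattle in 1 of 20 alternatives (adjusted p = 0.0161 in limma).

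NFIL3, which represses the D-box genes that HLF activates, varied most within groups. It had 365, 991 and 329 in females and 363, 1407 and 2572 in castrated males, against 2693, 1229 and 1665 in intact males. Buffalo had 398, 489.9 and 1665 and yak 307, 480.3 and 341. Females and intact males did not overlap (log2 fold change -1.81, SE 0.67, limma adjusted p = 0.124). Its residual SD of 0.93 exceeded that of 99.6% of tested probe sets, and no comparison passed on this probe set, the smallest adjusted p being 0.0704 for yak minus cattle by limma (log2 fold change -1.38, SE 0.54). In yak minus cattle NFIL3 passed in 2 of 20 alternatives (limma adjusted p down to 0.0158). The second NFIL3 probe set gave -1.04 there (SE 0.37, limma adjusted p = 0.0509). BHLHE40, a repressor that acts on the same E-box elements as CLOCK and BMAL1, fell in buffalo. It had 416, 781 and 518 in buffalo, against 1474, 958 and 1039.8 in yak and 696 to 1892 in cattle. The log2 fold change was -0.98 (SE 0.29, limma adjusted p = 0.0126) against cattle and -1.02 (SE 0.36, limma adjusted p = 0.0349) against yak. The call against cattle was lost without buffalo 1 (adjusted p = 0.0744 in limma), and the call against yak in 6 of 13 alternatives. Its second probe set fell by 0.71 (SE 0.12, limma adjusted p = 0.000298) and 0.49 (SE 0.15, limma adjusted p = 0.0160) in the same comparisons.

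Beyond the loop, 26 genes that modify clock proteins and 10 output genes of muscle were looked up, and 20 and 10 of them could be tested on their brightest probe set. With the 4 loop genes this made 34 genes. In castrated minus intact males 1 of 34 passed (2.94% of the list, beside 1.46% of all probe sets), and the median log2 fold change was 0.13 against 0.00 over all. The gene was NAMPT, which makes a precursor of the NAD that SIRT1 uses and is itself driven by the clock. It had 2285 ± 166 in castrated and 846 ± 197 in intact males (SD, n = 3 each) and rose by 1.44 on the log2 scale (SE 0.23, limma adjusted p = 0.0223). In females minus intact males 1 of 34 passed (2.94% of the list, beside 5.50% of all probe sets). It was FBXO32, a ubiquitin ligase of muscle atrophy, which averaged 4604 ± 1435 in females against 1621 ± 834 in intact males (SD, n = 3 each) and rose by 1.58 on the log2 scale (SE 0.34, limma adjusted p = 0.0365). The list's median was 0.06 against 0.01 over all. NAMPT lost its call without any castrated male or without intact male 2, and FBXO32 without any female or without intact male 1 (adjusted p up to 0.0970 and 0.118 in limma). Each gene has a second probe set, which was not called in the same comparison. Without intact male 3 the counts were 6 and 9, and without intact male 1 they were 3 and 0. The macrophage and fibroblast sums of the intact males differ in the same comparisons, and their part in these calls was not tested. In females minus castrated males 0 of 34 passed in limma, beside 0.0208% of all probe sets. At an unadjusted limma p under 0.05 there were 5, or 14.7% of the list beside 7.55% of all probe sets, and the list had a median of -0.08 against 0.00 over all. These shares were 38.2% beside 20.5% in castrated minus intact males and 41.2% beside 27.7% in females minus intact males. They were 35.3% beside 41.1% in yak minus cattle, 50% beside 57.5% in buffalo minus cattle and 47.1% beside 50.6% in buffalo minus yak.

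In yak minus cattle 8 of 34 passed, 5 higher and 3 lower, or 23.5% beside 29.1% of all probe sets. The list's median was 0.04 against -0.03 over all. CSNK1D, the kinase that marks PER proteins for breakdown, averaged 560 ± 96.3 in yak and 327 ± 63.0 in cattle (SD, n = 3 and n = 9), with a log2 fold change of 0.76 (SE 0.11, limma adjusted p = 0.000427). KLF15, a rhythmic regulator of muscle amino acid and lipid use, averaged 955 ± 174 in yak and 342 ± 99.0 in cattle and rose by 1.48 (SE 0.26). TCAP, a cap protein of titin, rose by 0.36 (SE 0.08). The subunits CSNK2A1 and CSNK2B of casein kinase 2 rose by 0.29 (SE 0.10) and 0.40 (SE 0.10), but CSNK2B was not called without yak 2 and CSNK2A1 passed in only 5 of 20 alternatives. The lipase LPL fell by 1.56 (SE 0.32), the myogenic factor MYOD1, a target of CLOCK and BMAL1, by 0.61 (SE 0.13), and TIMELESS, a replication fork protein that binds clock proteins, by 0.38 (SE 0.08). The limma adjusted p of the 8 genes ran from 0.000427 to 0.0470. Adipocyte markers (4 of 5 measured, none at 0) summed to 319.4 to 705.2 in yak and 505 to 4546 in cattle, and their part in the LPL difference was not tested.

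**Figure D5:**
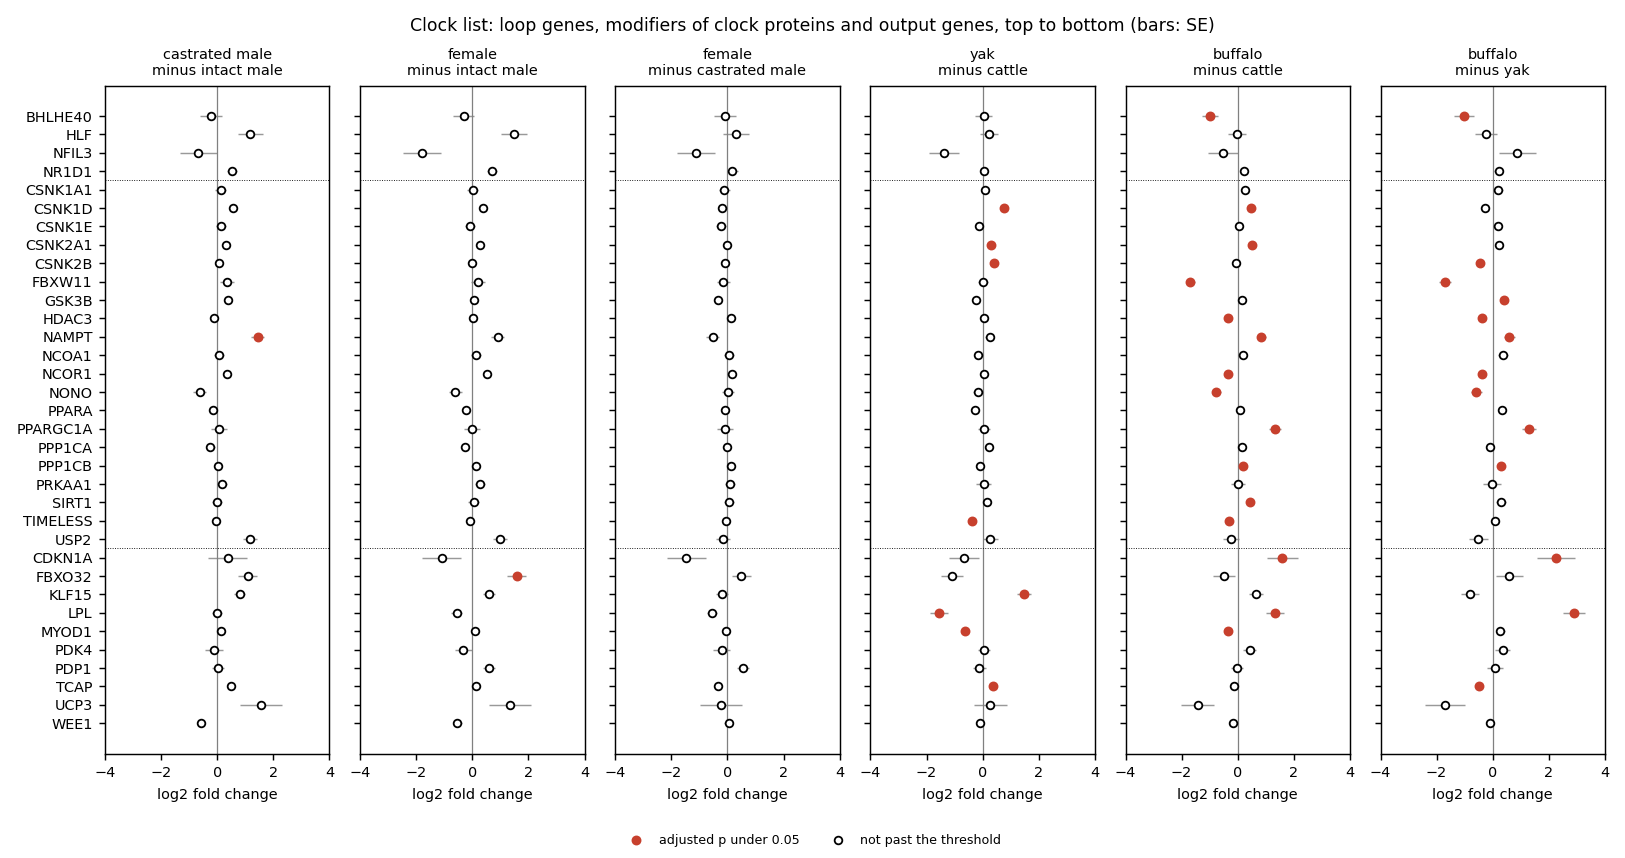
Log2 fold change (horizontal axis, points with SE bars) of 34 clock list genes in 6 comparisons, red where the adjusted p was under 0.05 and open otherwise. Red points number 1, 1 and 0 in the 3 cattle comparisons, 8 for yak and 15 for buffalo against cattle, and 13 for buffalo against yak.

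In buffalo minus cattle 15 of 34 passed, 8 higher and 7 lower, or 44.1% beside 51.4% of all probe sets, with a median of 0.04 against -0.03. FBXW11, the ubiquitin ligase subunit that recognises phosphorylated PER, had the smallest adjusted p of the list. It averaged 137 ± 6.13 in buffalo and 485 ± 92.6 in cattle (SD, n = 3 and n = 9) and fell by 1.69 (SE 0.17, limma adjusted p = 2.98e-06). PPARGC1A, a coactivator of ROR receptors and of mitochondrial genes, averaged 337 ± 47.8 in buffalo and 128 ± 34.2 in cattle and rose by 1.33 (SE 0.20). LPL rose by 1.34 (SE 0.32), CDKN1A, a cell cycle inhibitor, by 1.60 (SE 0.55), CSNK2A1 by 0.50 (SE 0.10), CSNK1D by 0.47 (SE 0.11), SIRT1, an NAD-dependent deacetylase, by 0.46 (SE 0.14) and the phosphatase subunit PPP1CB by 0.20 (SE 0.07). LPL and CDKN1A overlapped cattle, with lowest buffalo values of 1211 and 1021 against highest cattle values of 1458 and 1849. Adipocyte markers summed to 815.9 to 1212 in buffalo and 505 to 4546 in cattle. In buffalo ADIPOQ lay below and LEP above every cattle array, while FABP4 and CIDEC overlapped. The part of adipocytes in this LPL difference was not tested. NONO, an RNA-binding partner of PER proteins, fell by 0.76 (SE 0.16), as did TIMELESS by 0.30 (SE 0.08), MYOD1 by 0.33 (SE 0.13) and the corepressors of NR1D1, HDAC3 by 0.34 (SE 0.12) and NCOR1 by 0.34 (SE 0.11). NAMPT rose by 0.85 (SE 0.16) on its brightest probe set, A1_at, and fell by 1.11 (SE 0.19) on S1_at, so its direction in buffalo is not settled. NCOR1 was also split, at 0.62 (SE 0.09) on another of its probe sets, as was PPP1CB, at -0.64 (SE 0.21). The limma adjusted p of the 15 ran from 2.98e-06 to 0.0379. After quantile normalisation the list had 14 higher and 4 lower in buffalo, where 56.0% of all calls were higher against 44.8% without it. HDAC3, NCOR1 and MYOD1 were not called under it, and CSNK1D (limma adjusted p = 0.0510) and PPP1CB were not with castrated males and females alone as cattle. MYOD1 lost its call in 9 of 20 alternatives. The count was 9 without buffalo 2, when SIRT1, TIMELESS, NCOR1, HDAC3, PPP1CB, CDKN1A and MYOD1 lost their calls.

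In buffalo minus yak 13 of 34 passed, 6 higher and 7 lower, or 38.2% beside 42.2% of all probe sets, with a median of 0.14 against 0.01. LPL stood at 2.89 (SE 0.39), CDKN1A at 2.27 (SE 0.67), PPARGC1A at 1.28 (SE 0.25) and NAMPT at 0.60 (SE 0.20), again opposed by its other probe set at -1.77 (SE 0.23). Other probe sets of NCOR1, at 0.75 (SE 0.11), and of PPP1CB, at -0.62 (SE 0.18), again ran the other way. GSK3B, a kinase of several clock proteins, rose by 0.39 (SE 0.13) and PPP1CB by 0.30 (SE 0.09). FBXW11 fell by 1.70 (SE 0.20), NONO by 0.59 (SE 0.20), TCAP by 0.50 (SE 0.10), CSNK2B by 0.47 (SE 0.12), HDAC3 by 0.40 (SE 0.14) and NCOR1 by 0.39 (SE 0.13). The limma adjusted p of the 13 ran from 2.76e-05 to 0.0380, and adipocyte markers summed to 815.9 to 1212 in buffalo and 319.4 to 705.2 in yak. Among those markers LEP lay apart, at 164 to 251 in buffalo and 62.18 to 80.6 in yak, while ADIPOQ, FABP4 and CIDEC overlapped. Their part in the LPL difference was not tested. After quantile normalisation 10 were higher and 2 lower, where 53.9% of all calls were higher against 46.3% without it, and BHLHE40, CSNK2B, NONO, HDAC3 and NCOR1 were not called. The count was 8 without buffalo 3, yak 1 or yak 2.

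Among 7138 other named genes, each on its brightest probe set, those whose log2 values followed a member most closely over the 15 arrays were found by Pearson correlation, given as a description. For CRY1 these were PIK3R1, a regulatory subunit of phosphoinositide 3-kinase (0.92, and 0.84 within groups), the lipoprotein receptor VLDLR (0.86 and 0.53), the ubiquitin ligase UBE3A (0.85 and 0.68) and the kinase CHUK (0.84 and 0.72). For PER2 they were TRAPPC2L, of a vesicle tethering complex (0.84 and 0.55), CDKN2AIPNL (0.81 and 0.56), the sodium phosphate transporter SLC34A1 (0.79 and 0.27) and the glutaminyl-tRNA synthetase QARS1 (0.77 and 0.34). For RORA they were NOL7 (0.96 and 0.90), OGFOD1 (0.94 and 0.84), TFDP2, a partner of E2F factors (0.93 and 0.65) and the RNA polymerase II subunit POLR2J (0.92 and 0.50). All values of a pair come from the same arrays, and each value within groups was lower than that over the arrays. None of the 4 other loop genes measured was among these 12.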

How the data were processed

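Biotin-labelled cRNA from 15 muscle samples was hybridised to 1 Affymetrix bovine array each. The deposited table holds the authors' probe set intensity on a linear scale, with 24128 probe sets. Not given in the sources used here are the software and how background and normalisation were handled. The 112 controls in the table were left aside, 16 was added, log2 was taken without further normalisation, and those whose mean did not exceed the 40th percentile (6.42) were dropped, leaving 14409. The fit used limma 3.58.1 (lmFit, eBayes with trend) under R 4.3.3. The 3 cattle contrasts used the 9 cattle arrays, and the species contrasts used all 15, cattle being the average over its 3 groups. The model was also run on simulated data with 200 changes of 2-fold, and the outcome is not reported here. Symbols came from the platform annotation, with 1 symbol for 13292 probe sets, and Entrez identifiers matched 13263 to the current gene table of Bos taurus. Arrays of a group are biological replicates, per the labels.

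CRY1, PER2, RORA and the clock lists were chosen with earlier results of these data known. Named genes are every probe set of the 3, the loop genes with a probe set, list genes called in a contrast, and the 4 genes most correlated with each member. Second probe sets are named for loop genes, for list genes called between cattle groups, and where they opposed the first, after their values were seen. Alternatives were other added values, no filter, quantile normalisation, no trend, array weights, a replicate block, other cattle groups and leaving out each array.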

Additional observations from a re-analysis of the deposited data

How the results depend on the processing

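The 36 log2 fold changes of the 6 CRY1, PER2 and RORA probe sets were recomputed under 552 combinations of result and alternative. In 541 the value moved by less than 1 SD between replicates, in 533 the sign stayed, and 0 values called in the fit changed sign. With castrated males and females alone as cattle, CRY1 was -0.422 in buffalo and -0.608 in yak, and PER2 (A1_at) -0.39 in buffalo and 0.94 in yak. When 1 array was left out, RORA (A1_at) ranged from -0.008 to 0.583 in females minus intact males and from -0.333 to 0.258 in females minus castrated males. Of 38 calls of clock list genes, 16 held under every alternative.

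Array weights raised the number of called probe sets to 3533 (castrated minus intact males, 211 without), 5069 (females minus intact males, 792), 14 (females minus castrated males, 3) and 7021 (yak minus cattle, 4196). Clock list genes called then numbered 11 in castrated minus intact males, 13 in females minus intact males and 13 in yak minus cattle, against 1, 1 and 8. Quantile normalisation gave 3 list genes in females minus intact males, any probe set of the gene gave 13 in yak minus cattle, adding 1 gave 0 probe sets in females minus castrated males, and no filter gave 11929 in buffalo minus cattle (7400 with it). The cause of these changes was not tested, except that no filter tests more probe sets.

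When 1 array was left out, called probe sets numbered 41 to 995, 77 to 2194, 2 to 4, 2281 to 4643, 6215 to 7877 and 4720 to 5671 in the 6 comparisons in the order of the report. The 6086 of buffalo minus yak lies above its range. Clock list genes numbered 0 to 6, 0 to 9, 0 to 0, 6 to 8, 9 to 19 and 8 to 13. Same-numbered arrays did not deviate together, since 6 of 30 correlations passed 0.1 and the range was -0.326 to 0.145. The samples share only a number, and with a replicate block the clock list counts were 1, 1, 0, 7, 14 and 11 and the probe set counts 143, 642, 3, 3970, 7204 and 5884. The PER2 calls in castrated minus intact males were absent under the block (0 of 2).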
